A study of Homo sapiens with 33 samples.

Results

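NR3C1 encodes the glucocorticoid receptor, and 85 oligonucleotide tiles in a pool transfected into HEK293T cells carry its name. They were taken from the count table of the PUM2 pool as the entries whose tile name before the colon is NR3C1, without use of any measured value, and are 85 of the 1599 tiles of that pool and of the 3358 tiles of the 5 pools of the series. Each tile is present with 22 barcodes, so NR3C1 accounts for 1870 separately counted oligonucleotides. Values were compared between the anti-PUM2 immunoprecipitate (3 libraries, A, B and C) and Input (3 libraries, A, B and C). Both groups came from HEK293T cells, a human embryonic kidney line, that carried the PUM2 pool and no added protein, so the antibody was directed at the cells' own PUM2. The cells were harvested 48 hours after transfection and fixed with 0.1% formaldehyde for 10 minutes. Whether the replicates were separate cultures is not stated, and p-values therefore cover only differences among the libraries at hand, which could be technical. The PUM2 groups analysed here held no precipitation with a control antibody, so recovery with PUM2 and recovery by any precipitation cannot be told apart.

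The glucocorticoid receptor is a nuclear receptor: it is held in the cytoplasm until it binds cortisol or a synthetic steroid, and then acts in the nucleus as a transcription factor on genes of metabolism, inflammation and the stress response. PUM2 is a Pumilio-family protein whose repeat domain reads short RNA elements that begin with UGUA, usually in the 3' untranslated region of an mRNA. Pumilio proteins are known to recruit deadenylases, to shorten the life of their target mRNAs and to lower their translation. The question put to the NR3C1 tiles was which stretches of the RNA are recovered with PUM2. Tile names give a number and no position, and tile sequences were not used here, so stretches are named by tile number alone.

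A small set of NR3C1 tiles rose in the PUM2 immunoprecipitate, and 69 of the 83 tested tiles lay within 1 log2 unit of Input. Of the 85 tiles, 83 held enough reads in enough libraries to be tested. Of these, 8 were called higher and 2 lower, with 73 not passing (edgeR quasi-likelihood test, Benjamini-Hochberg adjusted p under 0.05 over all 1563 tested tiles of the pool). The tiles called higher were NR3C1:8, 9, 40, 41, 56, 62, 63 and 80, and those called lower were NR3C1:71 and 78. Over all tested tiles of the pool 14.1% were called higher and 4.16% lower, against which the NR3C1 shares were 9.64% and 2.41%. Neither share stood above that of the whole pool. With scaling by library size alone, which moved the median of all tested tiles by -0.23 on the log2 scale, 5 NR3C1 tiles were called higher (6.02%, against 12.7% of all tested tiles) and 8 lower (9.64%, against 14.5%). NR3C1:8, 9 and 41 were the tiles no longer called higher.

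NR3C1:56 had the largest log2 fold change of the tested tiles. It had 258.9, 206.0 and 209.2 CPM in immunoprecipitate libraries A, B and C, against 28.2, 27.0 and 46.4 CPM in Input libraries A, B and C (CPM, counts per 1000000 reads after TMM adjustment of the library size). All immunoprecipitate libraries were far above all Input libraries. The tile was 6.63-fold higher (log2 fold change 2.73 ± 0.37, SE, n = 3 against 3, edgeR adjusted p = 0.000947). It was also among the scarcest tiles of NR3C1, with 3613 Input reads over the 3 libraries. Of its neighbours, NR3C1:55 was not tested, as too few libraries held enough reads of it. NR3C1:57 had 25.8, 0 and 0 CPM in the immunoprecipitate against 60.9, 46.2 and 69.6 CPM in Input. That value came from 413 reads of 1 barcode in library A, and the other two libraries held no read of the tile, which allows levels of up to 0.207 CPM in B and 0.180 CPM in C. The fitted log2 fold change of NR3C1:57, -2.78 ± 2.16, did not pass (edgeR adjusted p = 0.452). Without library A, which left no immunoprecipitate read, it was called lower (adjusted p = 0.00204 in edgeR). Without immunoprecipitate library B or C it was not (adjusted p = 0.489 and 0.468).

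Adjacent tiles NR3C1:62 and 63 were a second place of recovery. NR3C1:63 had 408.4, 396.4 and 280.5 CPM in the immunoprecipitate, against 84.5, 103.4 and 90.1 CPM in Input. It was 3.90-fold higher (log2 fold change 1.96 ± 0.26, SE, n = 3 against 3, edgeR adjusted p = 0.000818). NR3C1:62 had 520.8, 331.2 and 233.5 CPM in the immunoprecipitate, against 131.8, 154.9 and 133.6 CPM in Input, and was 2.58-fold higher (1.37 ± 0.32, adjusted p = 0.0198). Groups did not overlap in either tile. On one side NR3C1:61 was near its Input level (-0.07 ± 0.27). On the other NR3C1:64 had 127.8, 49.8 and 132.4 CPM in the immunoprecipitate, against 31.1, 37.2 and 50.4 CPM in Input. Library B of its immunoprecipitate lay just below the highest Input library, and the tile did not pass (1.39 ± 0.57, adjusted p = 0.145). Without that library it was called higher (1.72, adjusted p = 0.0259 in edgeR). Without immunoprecipitate library A or C it was not (adjusted p = 0.188 and 0.178).

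The third strong tile was NR3C1:80. It had 276.2, 445.2 and 345.3 CPM in the immunoprecipitate, against 92.9, 86.5 and 108.0 CPM in Input. It was 3.71-fold higher (log2 fold change 1.89 ± 0.27, SE, n = 3 against 3, edgeR adjusted p = 0.00137). The next tiles had values as large but rested on few reads and wide error. NR3C1:81 had 165.1, 27.5 and 39.1 CPM in the immunoprecipitate, against 19.0, 26.3 and 16.0 CPM in Input (1.92 ± 0.88, adjusted p = 0.187). NR3C1:82 had 130.2, 58.6 and 62.5 CPM in the immunoprecipitate, against 15.3, 20.7 and 20.1 CPM in Input (2.16 ± 0.68, adjusted p = 0.0646). In both tiles every immunoprecipitate library lay above every Input library, with library A much the highest. NR3C1:82 was called higher without immunoprecipitate library B (2.36, adjusted p = 0.0312 in edgeR) or C (2.38, adjusted p = 0.0272). Without library A, its highest, it was not (1.71, adjusted p = 0.0634). NR3C1:79, on the other side, was at 0.29 ± 0.21, and NR3C1:83 had 130.2, 0.0690 and 139.5 CPM in the immunoprecipitate, against 64.3, 76.6 and 82.4 CPM in Input. Library B of NR3C1:83 held 1 read, so the libraries of 1 group lay on both sides of Input.

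NR3C1:40 and 41 were a second adjacent pair. NR3C1:40 had 223.8, 243.2 and 141.9 CPM in the immunoprecipitate, against 79.2, 60.8 and 84.1 CPM in Input, and was 2.72-fold higher (log2 fold change 1.44 ± 0.34, SE, n = 3 against 3, edgeR adjusted p = 0.0203). NR3C1:41 had 199.4, 367.2 and 195.6 CPM in the immunoprecipitate, against 108.6, 112.0 and 120.7 CPM in Input, and was 2.23-fold higher (1.16 ± 0.32, adjusted p = 0.0404). Groups did not overlap in either tile. NR3C1:39 (0.30 ± 0.19, adjusted p = 0.337) and NR3C1:42 (0.34 ± 0.34, adjusted p = 0.562) did not pass.

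The remaining pair of tiles called higher, NR3C1:8 and 9, differed from the others in being abundant and in a small change. NR3C1:8 had 1280, 1253 and 1400 CPM in the immunoprecipitate, against 934.4, 976.5 and 1076 CPM in Input, which made it 1.32-fold higher (log2 fold change 0.40 ± 0.11, SE, n = 3 against 3, edgeR adjusted p = 0.0474). NR3C1:9 had 1145, 1257 and 1441 CPM in the immunoprecipitate, against 949.7, 915.2 and 928.2 CPM in Input, which made it 1.38-fold higher (0.46 ± 0.12, adjusted p = 0.0356). Both were deeply read: NR3C1:8 held 104469 Input reads and NR3C1:9 held 97138. Neighbours NR3C1:7 (-0.06 ± 0.14) and NR3C1:10 (0.00 ± 0.17) were at their Input level within 1 SE. With scaling by library size alone the calls of NR3C1:8 (0.16, adjusted p = 0.348 in edgeR) and NR3C1:9 (0.23, adjusted p = 0.221) ended.

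NR3C1:71 and 78 were lower in the immunoprecipitate. NR3C1:71 had 208.3, 79.2 and 74.7 CPM in the immunoprecipitate, against 382.7, 361.8 and 325.9 CPM in Input, a log2 fold change of -1.56 ± 0.42 (SE, n = 3 against 3, edgeR adjusted p = 0.0357). NR3C1:78 had 155.3, 181.7 and 198.3 CPM in the immunoprecipitate, against 328.5, 379.6 and 285.7 CPM in Input (-0.89 ± 0.23, adjusted p = 0.0285). Groups did not overlap in either tile. Their neighbours NR3C1:70 (-0.04 ± 0.41), NR3C1:72 (-0.16 ± 0.28), NR3C1:77 (-0.16 ± 0.27) and NR3C1:79 did not pass. With NR3C1:57, described above, NR3C1:84 (-1.14 ± 0.92, adjusted p = 0.466 in edgeR) and NR3C1:76 (-1.03 ± 0.53, adjusted p = 0.240) made up the 5 tiles of lowest value. They did not pass. NR3C1:84 was called lower only without immunoprecipitate library C (-2.93, adjusted p = 0.0154 in edgeR), and NR3C1:76 only without library B (-1.89, adjusted p = 0.00864). Each time the library left out was the highest of its group. Without A or B, NR3C1:84 was not called (adjusted p = 0.634 and 0.598), nor was NR3C1:76 without A or C (0.366 and 0.388).

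The calls differed in how far they held. Those of NR3C1:56, 63 and 80 held under all 13 alternative fits, with adjusted p values up to 0.00930, 0.00774 and 0.0117 in edgeR or DESeq2. Without any 1 Input library, A, B or C, the other 7 calls were lost. By edgeR 3 tiles were then called higher (3.61%, against 11.5%, 11.4% and 11.6% of all tested tiles). Lower calls fell to 0, and over all tested tiles to 0.767%, 0.958% and 1.21%, from 4.16% with all libraries. At an unadjusted p under 0.05, 8, 10 and 9 NR3C1 tiles were higher and 3, 3 and 3 lower. No share of all tested tiles was counted at that threshold, so these counts cannot be set against the pool. The log2 fold changes of these 7 tiles moved by 0.128 at most, as in NR3C1:40, which was at 1.31 to 1.54 (adjusted p = 0.0729 to 0.118 in edgeR). All 10 called tiles kept their direction under every alternative. NR3C1:71 also lost its call without immunoprecipitate library B or C, although more tiles were called in all. Without immunoprecipitate library A, B and C, 9, 12 and 11 NR3C1 tiles were called higher (10.7%, 14.3% and 13.1%, against 15.9%, 15.1% and 16.8% of all tested tiles). In the same order, 4, 4 and 5 were called lower (4.76%, 4.76% and 5.95%, against 7.32%, 7.20% and 9.31%).

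The tiles called higher made 5 runs along the tile numbers: 3 pairs of neighbours (8 and 9, 40 and 41, 62 and 63) and the single tiles 56 and 80. Of the 83 tested tiles 39 had a log2 fold change above 0 and 44 one below 0, and the median was -0.01, against -0.06 for all tested tiles of the pool. Every called tile had groups that did not overlap. Groups also did not overlap, without a call, in 6 more tiles that were higher and 9 that were lower. That made 14 of 83 with the immunoprecipitate above Input (16.9%, against 19.7% of all tested tiles) and 11 with it below (13.3%, against 20.6%). As a description, the log2 fold changes of a tile and of the next tile number had a Spearman correlation of 0.287 over 81 pairs of NR3C1 tiles, which share their libraries and may share sequence. For mean Input CPM the same correlation was 0.711.

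Means over 5 consecutive tile numbers were highest at 2 places among the later numbers. Only windows whose 5 tiles were all tested were ranked, so those holding NR3C1:54 or 55 were left out. NR3C1:56 was therefore ranked only in the window NR3C1:56 to 60, whose fitted mean was -0.08. By the mean of the fitted log2 fold changes, the highest of 75 windows was NR3C1:79 to 83, at 1.31. Single libraries were read on another measure, mean log2 CPM minus the Input mean, which need not average to the fitted value. On it immunoprecipitate libraries A, B and C of this window were at 1.61, -0.79 and 1.14 (SD 1.27), so library B went against A and C. Windows NR3C1:78 to 82 and NR3C1:62 to 66 were nearly as high by the fitted mean (1.07 and 1.05). Their immunoprecipitate libraries A, B and C were close to each other, at 1.23, 0.83 and 0.81 (SD 0.24) and at 0.66, 0.99 and 1.03 (SD 0.20). The lowest fitted means were those of NR3C1:57 to 61 (-0.64), which contains the almost unrecovered NR3C1:57, and NR3C1:74 to 78 (-0.51). Their immunoprecipitate libraries A, B and C were at -0.38, -2.13 and -1.89 (SD 0.95) and at -0.76, -0.22 and -0.79 (SD 0.32).

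Input level changed along the tile numbers, and the precision of the fold changes with it. Tiles 1 to 17 had a median of 910.7 CPM in the immunoprecipitate and 995.6 CPM in Input, and tiles 18 to 34 had medians of 804.9 and 939.4 CPM, in the same order. Tiles 35 to 51 had medians of 170.2 CPM in the immunoprecipitate and 146.4 CPM in Input, tiles 52 to 68 of 224.7 and 116.4 CPM, and tiles 69 to 85 of 178.4 and 221.9 CPM. The median SE of a log2 fold change was 0.14 and 0.20 in tiles 1 to 17 and 18 to 34, and 0.34, 0.37 and 0.29 in tiles 35 to 51, 52 to 68 and 69 to 85. In the same order the stretches held 2, 0, 2, 3 and 1 tiles called higher, and both tiles called lower were in the last. Of the 8 tiles called higher, 6 had a mean Input level under the NR3C1 median of 331.3 CPM, and those were the 6 with a change of at least 2-fold. The part of Input level in these calls was not tested.

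The most abundant tiles of NR3C1 were recovered in proportion to Input. NR3C1:21 had 2921, 3894 and 3271 CPM in the immunoprecipitate, against 3087, 3344 and 3226 CPM in Input (log2 fold change 0.06 ± 0.12). NR3C1:22 (0.06 ± 0.24) and NR3C1:33 (0.19 ± 0.13), the next in Input reads, also did not pass (adjusted p = 0.901 and 0.381 in edgeR). Groups overlapped in all of these tiles.

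Barcodes show how many separately counted oligonucleotides carried each change. In NR3C1:80, 17 of the 20 barcodes with at least 30 reads had a higher mean CPM in the immunoprecipitate than in Input, and in NR3C1:62 it was 18 of 21. NR3C1:63 had 15 of 22, NR3C1:40, 8 and 9 had 14 of 22 each, NR3C1:41 had 11 of 21 and NR3C1:56 had 10 of 19. A majority of such barcodes was higher in each of the 8 tiles, though a narrow one in NR3C1:41 and 56. It was also higher in 12 of the 73 tiles that were not called. Among all 83 tested NR3C1 tiles 20 had such a majority, against 424 of the 1563 tested tiles of the pool. Over the 8 tiles called higher 66.9% of 169 such barcodes were higher, against 39.4% of 1503 in the NR3C1 tiles that were not called. In NR3C1:71 and 78 it was 3 of 22 and 5 of 21. Barcodes of a tile share its sequence and library, so these counts describe the calls and do not support them.

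The change of NR3C1:56 rested on few barcodes. Only 7, 7 and 7 of its 22 barcodes had a read in immunoprecipitate libraries A, B and C, against 16, 16 and 16 in Input libraries A, B and C. Barcode 13 alone held 31.8% of its immunoprecipitate reads, with 1392, 1598 and 388 reads, against 97, 82 and 147 reads in Input. Without the barcode of most reads in each tile, NR3C1:56 was still called higher (2.38, adjusted p = 0.00930 in edgeR), as were NR3C1:63 (1.92, adjusted p = 0.00215) and NR3C1:80 (2.09, adjusted p = 0.00119). NR3C1:8 (0.43, adjusted p = 0.0825), NR3C1:71 (-1.34, adjusted p = 0.0734) and NR3C1:78 (-0.71, adjusted p = 0.0601) were then no longer called, at values not far from those with all barcodes. That left 7 tiles higher (8.43%, against 14.3% of all tested tiles) and 0 lower (against 3.73%), with 4 lower at an unadjusted p under 0.05. For the unadjusted count no share of all tested tiles was counted.

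Each of the 6 tiles that were at least 2-fold higher had reads from more barcodes, in every immunoprecipitate library, than either of the 2 uncalled NR3C1 tiles nearest to it in Input level. NR3C1:40, at a mean of 203.0 CPM in the immunoprecipitate and 74.7 CPM in Input, had reads from 17, 13 and 13 barcodes in immunoprecipitate libraries A, B and C. The tiles nearest to it in Input level, NR3C1:83 and 67, had reads from 4, 1 and 5 and from 1, 2 and 3 barcodes. For NR3C1:63 the numbers were 9, 11 and 9, against 5, 5 and 8 in NR3C1:43 and again 1, 2 and 3 in NR3C1:67. For NR3C1:8, whose change was small, they were 18, 18 and 20, against 21, 18 and 17 in NR3C1:6 and 14, 19 and 20 in NR3C1:10. These numbers come from the same reads as the fold changes and are a description.

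Many barcodes that were read in Input had no read in the immunoprecipitate. Of the 1870 NR3C1 barcodes, 54.5%, 53.2% and 49.7% had no read in immunoprecipitate libraries A, B and C, against 9.57%, 8.98% and 8.98% in Input libraries A, B and C. Over the whole pool these shares were 51.5%, 49.1% and 46.8% in the immunoprecipitate, against 9.40%, 9.16% and 9.30% in Input. Recovery followed the Input reads of a barcode. Among NR3C1 barcodes with a mean of 1000 Input reads or more, 79.7%, 82.8% and 86.1% were read in immunoprecipitate libraries A, B and C, and 59.0% in all of them. Among those with 100 to 300 Input reads the shares were 29.8%, 32.0% and 34.3%, and 6.91% were read in all. In the rest of the pool the corresponding shares in all 3 libraries were 65.0% and 11.1%. The barcodes that were read also differed between immunoprecipitate libraries. The Spearman correlation of barcode CPM between libraries was 0.417 to 0.435 in the immunoprecipitate and 0.922 to 0.929 in Input, over the same 1870 barcodes. Summed to tiles, it was 0.885 to 0.907 in the immunoprecipitate and 0.991 to 0.995 in Input over 83 tiles. The median coefficient of variation of a tested NR3C1 tile was 26.5% over the immunoprecipitate libraries and 8.04% over the Input libraries, and that of all tested tiles was 26.3% and 8.07%.

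Tests of single barcodes gave mostly lower calls, unlike tests of tiles. Of 1583 NR3C1 barcodes tested with edgeR, 4 were called higher (0.253%, against 1.99% of all tested barcodes) and 274 lower (17.3%, against 18.1%). The 4 belonged to NR3C1:5, 7, 8 and 56, 1 in each. In NR3C1:71, 11 of 22 barcodes were called lower. That did not set it apart: NR3C1:57 (9 of 10) and NR3C1:67 (10 of 14), not called as tiles, had larger shares. NR3C1:56, called higher as a tile, had 3 barcodes called lower among 12 tested.

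As a whole, NR3C1 took a slightly smaller share of the immunoprecipitate than of Input. Its tiles held 4.11%, 4.00% and 4.03% of the reads of immunoprecipitate libraries A, B and C, against 4.65%, 4.68% and 4.66% in Input libraries A, B and C. Groups did not overlap, and the means differed by -0.62 percentage points (4.05% ± 0.0530 in the immunoprecipitate and 4.66% ± 0.0145 in Input, SD, n = 3 each). A share also depends on how much the other tiles of the pool took. Immunoprecipitate libraries held 15986799 to 17727926 reads in all and Input libraries 29433144 to 35092298. The upper limits given for tiles with no read cover counting error only.

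Set beside other RNAs of the pool, NR3C1 had a middling to low share of tiles called higher and smaller changes in them. By that share it ranked 16 of 23 source RNAs. RBM27 and VAPA, the mRNAs nearest to it in number of tested tiles, had 9 of 80 (11.2%) and 8 of 86 (9.30%) higher, and 2 and 3 lower. NORAD, a noncoding RNA with many known Pumilio sites, had 27 of 66 (40.9%) higher and 1 lower. Highest values were taken over all tested tiles of an RNA, called or not. The highest log2 fold change was 2.73 in NR3C1, against 7.95 in RBM27, 7.18 in VAPA and 5.68 in NORAD. Among the 220 tiles of the pool called higher, NR3C1:56 stood at rank 70, NR3C1:63 at 120 and NR3C1:80 at 122, and NR3C1:8 at 219. The median log2 fold change of called tiles was 1.40 in NR3C1 and 2.09 in the whole pool. None of these differences between RNAs was tested.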

How the data were processed

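The authors deposited raw read counts per tile and barcode, from single-end amplicon sequencing of oligonucleotide cDNA per the labels' protocols, as 1 table for the PUM2 pool. How reads were assigned is not given in the sources used here, and no molecular identifiers are mentioned. All values were whole numbers and column totals differed. Column names mark the fraction and a letter (A to C) rather than the replicate number of the labels, and were matched to groups only; 0 columns were left unmatched. No library was a copy of another of its group (chi-square per degree of freedom of 71.6 to 666.3 over tiles).

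Counts were summed over the 22 barcodes of a tile. In R 4.3.3 the whole pool was filtered with filterByExpr, scaled with TMM and fitted with the robust quasi-likelihood F test of edgeR 4.0.16, with Benjamini-Hochberg adjustment over 1563 tiles. SE is the absolute log2 fold change over the square root of F. Window means are of fitted log2 fold changes. The library values and SD of a window are of log2 CPM with a prior count of 2. The script was tested on simulated data. Alternatives were RLE or library-size scaling, all tiles unfiltered, only tiles averaging 50 reads or more, DESeq2 1.42.0, the letter as a block, each library left out, tiles without their barcode of most reads, a 2-fold minimum and single barcodes.

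Members, lists and tests were chosen with earlier results of these data known. Named tiles were all called tiles and their neighbours, the 5 highest and 5 lowest by log2 fold change and the 3 of most Input reads. Other tiles are named as the nearest in Input level, for reads or tests of single barcodes, or for very low counts. Some are named for a call gained under an alternative, or for spread between immunoprecipitate libraries. All of these were chosen after their values were seen. The symbol NR3C1 matched NCBI Gene 2908, a protein-coding gene, in the RefSeq gene table. No genome position is given.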

Additional observations from a re-analysis of the deposited data

How the results depend on the processing

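Of the count of NR3C1 tiles called higher (8) and lower (2), RLE scaling, no filter and a mean count of at least 50 gave the same numbers. Library size alone gave 5 and 8 and a median log2 fold change of -0.26, and DESeq2 gave 13 and 4 (15.7% and 4.82%, against 18.6% and 10.8% of all tested tiles), with NR3C1:5, 51, 64, 81 and 82 added to the higher and NR3C1:4 and 18 to the lower. Leaving out 1 library gave 3 to 12 higher (3.61% to 14.3%, against 11.4% to 16.8% of all tested tiles). It gave 0 to 5 lower (0% to 5.95%, against 0.767% to 9.31%). Without the barcode of most reads 7 were higher and 0 lower by edgeR (8.43% and 0%, against 14.3% and 3.73% of all tested tiles). At an unadjusted p under 0.05, 4 were lower. A 2-fold minimum left 6 tiles higher and 1 lower. For the unadjusted count and the 2-fold minimum, no share of all tested tiles was counted. Single barcodes gave 4 barcodes higher and 274 lower (0.253% and 17.3%, against 1.99% and 18.1% of all tested barcodes). The median over tiles was -0.01, and -0.26 when each tile was read as the median of its barcodes. The letter used as a replicate block gave 5 higher and 2 lower (6.02% and 2.41%, against 13.8% and 5.05% of all tested tiles). The calls of NR3C1:8, 9, 41 and 78 were lost and NR3C1:18 was added to the lower. Under the block the median was -0.091, against -0.118 for all tested tiles. Letters were not shown to pair the libraries: same-letter deviations from the group means correlated at -0.0459, 0.00166 and 0.00220 over 1563 tiles, and 0 of 3 immunoprecipitate libraries correlated best with the Input of its own letter. The share of NR3C1 barcodes higher in the immunoprecipitate was 41.6% (43.3% over all tested tiles), and 42.5% with at least 100 reads per barcode. Single immunoprecipitate libraries were above the Input mean in 31.7% to 33.0%. The difference in the share of pool reads moved by less than the spread between libraries under every alternative run. Precision was lowest in tiles 35 to 51, 52 to 68 and 69 to 85, with a median SE of 0.34, 0.37 and 0.29. The part of read depth in this was not tested.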

Other observations

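Several NR3C1 tiles were almost absent from the Input libraries. NR3C1:54 had 0 reads in all 6 libraries, which allows up to 0.0636 CPM over the immunoprecipitate group and 0.0287 CPM over the Input group. NR3C1:55 had 320, 0 and 0 reads in immunoprecipitate libraries A, B and C, all from 1 barcode, against 8, 12 and 16 reads in Input libraries A, B and C. These were the 2 tiles not tested. NR3C1:44 (34 reads in the immunoprecipitate and 102 in Input) and NR3C1:45 (105 and 112 reads, in the same order) passed the filter at the same low level, and in NR3C1:45 the immunoprecipitate libraries held 85, 7 and 13 reads. The 4 NR3C1 tiles of lowest Input level were thus 2 pairs of neighbours, NR3C1:44 and 45 and NR3C1:54 and 55.

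The last tile numbers differed widely between immunoprecipitate libraries. NR3C1:84 had 21.0, 7.93 and 125.6 CPM in the immunoprecipitate, against 137.2, 103.9 and 99.7 CPM in Input. NR3C1:85 had 0, 130.9 and 8.28 CPM in the immunoprecipitate, against 54.2, 85.0 and 70.9 CPM in Input. In both tiles the immunoprecipitate libraries were spread over a wider range than the Input libraries.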
